A study of Mus musculus with 12 samples.

Results

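The genes of MHC class I antigen presentation described here are 9 of the 46078 genes in the deposited count tables. They were chosen by symbol, with earlier results of these data known. They are the heavy chains H2-K1, H2-D1 and H2-T23, the light chain B2m, the peptide transporter subunits Tap1 and Tap2, the loading factor Tapbp (tapasin), the peptide-trimming enzyme Erap1 and the transcriptional activator Nlrc5. All 9 were among the 14009 genes that passed the filter on low counts. The cells were CD8 T cells, which recognise peptides on MHC class I, taken from spleens of C57BL/6 mice and harvested on day 7 of culture. There were 4 groups of 3 libraries: TGFβ + RA, TGFβ, RA, and IL-2 + IL-15. The interleukins IL-2 and IL-15, growth and survival factors of T cells, were in every culture. RA is all-trans retinoic acid, a vitamin A metabolite that binds nuclear receptors, and TGFβ is transforming growth factor beta, a cytokine that signals through SMAD proteins. The series title names the purpose as generating CD8 Trm cells, that is, tissue-resident memory cells, outside the animal. The labels give no tie between a replicate number and an animal. The p-values here therefore cover only the variation among the libraries of each group, which may be technical.

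MHC class I molecules show peptides from inside the cell to CD8 T cells. Proteins are cut by the proteasome, and the peptides are carried into the endoplasmic reticulum by the transporter that Tap1 and Tap2 form, trimmed there by Erap1 and, with the help of tapasin, placed on a heavy chain paired with B2m. H2-K1 and H2-D1 encode the classical heavy chains K and D, while H2-T23 encodes Qa-1, a non-classical chain that presents leader peptides of other class I chains to the receptor of CD94 and NKG2A. NLRC5 joins the RFX factors on class I promoters and raises transcription of heavy chains, B2m and Tap1, and interferons raise most of these genes.

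The promoters of 5 members, the heavy chains, B2m and Tap1, are shown so that the arrangement of the known class I elements can be read in genes named above as NLRC5 targets. They were picked with their matches known. RefSeq start sites (build GRCm38.p6) gave a promoter for 7 of the 9 members, all but Tap2 and Nlrc5. The 250 bases before the start are printed 5′ to 3′ on the strand of the gene, with capitals on each motif match. The motifs described here were each searched on its own, on both strands. They were GGGGATTCC for the kappa B site, GAAANNGAA and the shorter GAANNGAA for the interferon-responsive IRF or ISRE element, TGACG for the CRE-like X2 core and CCAAT for the Y box core. GAANNGAA was added after the sequences had been read. The windows are chr17:34000334-34000583 on the minus strand for H2-K1, chr17:35262844-35263093 on the plus strand for H2-D1, chr17:36032702-36032951 on the minus strand for H2-T23, chr2:122147437-122147686 on the plus strand for B2m and chr17:34187306-34187555 on the plus strand for Tap1. Of 2 RefSeq starts of H2-K1, the downstream one is shown.
H2-K1: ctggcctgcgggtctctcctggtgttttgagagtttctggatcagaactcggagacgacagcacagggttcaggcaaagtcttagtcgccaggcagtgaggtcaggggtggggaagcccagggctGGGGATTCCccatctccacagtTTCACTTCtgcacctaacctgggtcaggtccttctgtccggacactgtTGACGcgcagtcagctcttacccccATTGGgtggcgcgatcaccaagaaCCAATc
H2-D1: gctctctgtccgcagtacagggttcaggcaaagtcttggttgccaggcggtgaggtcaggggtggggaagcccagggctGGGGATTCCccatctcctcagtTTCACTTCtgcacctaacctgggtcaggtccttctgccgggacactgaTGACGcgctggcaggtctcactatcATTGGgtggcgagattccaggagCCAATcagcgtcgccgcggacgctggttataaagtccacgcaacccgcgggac
H2-T23: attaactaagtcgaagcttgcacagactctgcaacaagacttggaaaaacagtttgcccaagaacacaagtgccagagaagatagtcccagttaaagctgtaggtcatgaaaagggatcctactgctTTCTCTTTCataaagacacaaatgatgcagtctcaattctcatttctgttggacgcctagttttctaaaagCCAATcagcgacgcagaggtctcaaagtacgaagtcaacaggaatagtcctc
B2m: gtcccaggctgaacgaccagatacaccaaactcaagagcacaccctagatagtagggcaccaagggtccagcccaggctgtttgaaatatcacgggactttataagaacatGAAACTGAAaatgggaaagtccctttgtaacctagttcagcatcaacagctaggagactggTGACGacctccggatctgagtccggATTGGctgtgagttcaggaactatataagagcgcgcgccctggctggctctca
Tap1: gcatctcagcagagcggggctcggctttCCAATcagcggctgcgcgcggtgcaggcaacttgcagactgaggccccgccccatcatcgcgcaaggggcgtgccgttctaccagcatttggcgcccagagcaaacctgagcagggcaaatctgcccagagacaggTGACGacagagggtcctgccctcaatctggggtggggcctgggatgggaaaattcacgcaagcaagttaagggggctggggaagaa

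The classical heavy chains shared 1 arrangement. In both H2-K1 and H2-D1 a kappa B match was followed 22 bases later by the IRF pair, a further 48 bases later by TGACG and a further 25 bases later by CCAAT, and a second CCAAT match followed after 24 bases in H2-K1 and 23 bases in H2-D1. The whole block sat closer to the start in H2-K1, where kappa B began at position -125, than in H2-D1, where it began at -171. Identity was measured on windows from 250 bases before the start to 50 after it, with gaps counted as columns. For H2-K1 the window was that of the other, upstream start, which is not printed. By this measure H2-K1 and H2-D1 had 214 identical bases in 361 aligned columns (59.3%). B2m had TGACG and CCAAT at the same spacing of 25 bases, at -78 and -53, with GAAANNGAA at -139. H2-T23 had GAAANNGAA at -123 and CCAAT at -52, and by the same measure was 46.8% identical to H2-K1 and 49.5% to H2-D1. Tap1 had CCAAT at -222 and TGACG at -86, in a window shared head to head with Psmb9, an immunoproteasome subunit that starts on the opposite strand. Of the promoters not printed, that of Tapbp had CCAAT at -248 and -165, and that of Erap1 had GAAANNGAA at -9 and -3 and GAANNGAA at -49. The background was 32851 RefSeq promoters, each from 250 bases before the start to 50 after it. Of these, 0.25% held GGGGATTCC, 8.56% GAAANNGAA, 20.1% GAANNGAA, 20.8% TGACG and 37.4% CCAAT. A match is a description of the letters and was not tested as a binding site.

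**Figure D1:**
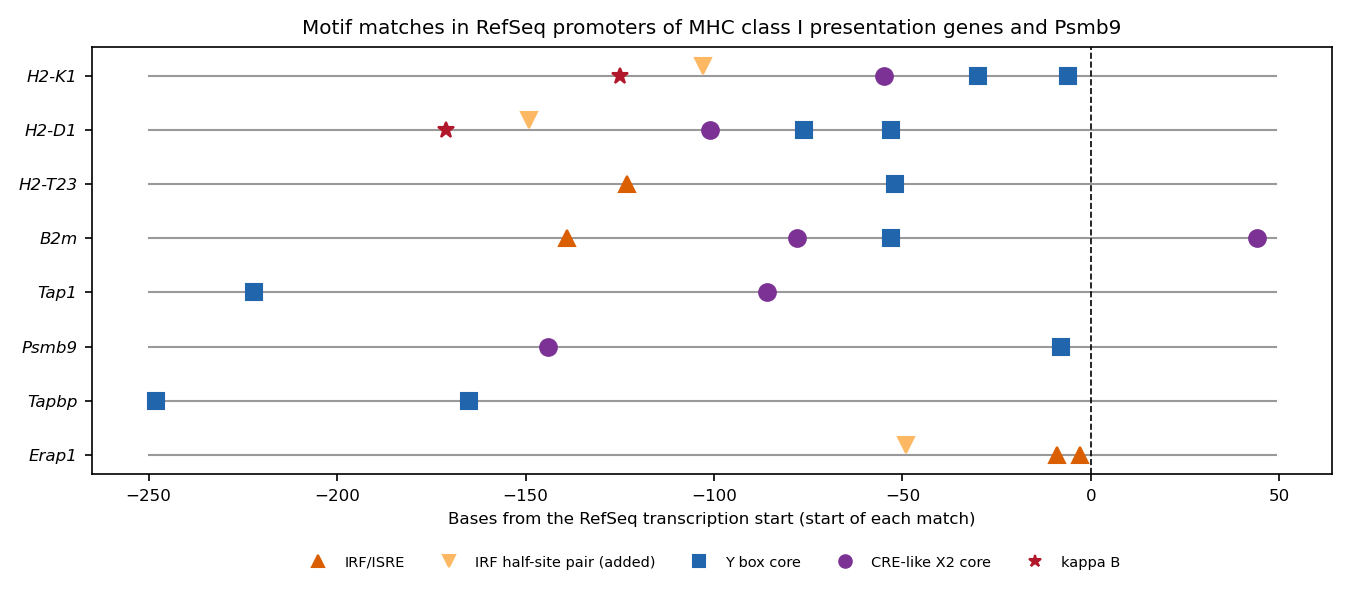
Positions of motif matches in RefSeq promoters, in bases from the transcription start on the horizontal axis, with genes down the page and a symbol for each motif. H2-K1 and H2-D1 show the same order of kappa B, IRF pair, TGACG and CCAAT matches, with kappa B at -125 in H2-K1 and at -171 in H2-D1.

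In the genome (GRCm38), 6 of the 9 members lie in the MHC on chromosome 17. H2-K1 (ENSMUSG00000061232) spans 33996017 to 34000347, H2-D1 (ENSMUSG00000073411) 35262730 to 35267499, H2-T23 (ENSMUSG00000067212) 36029773 to 36032855, Tap1 (ENSMUSG00000037321) 34187553 to 34197225, Tap2 (ENSMUSG00000024339) 34203527 to 34216321 and Tapbp (ENSMUSG00000024308) 33915899 to 33929292. B2m (ENSMUSG00000060802) is on chromosome 2 at 122147686 to 122153083, Erap1 (ENSMUSG00000021583) on chromosome 13 at 74639568 to 74693201 and Nlrc5 (ENSMUSG00000074151) on chromosome 8 at 94434356 to 94527272. All 9 are annotated as protein-coding. Class I genes are near copies of each other: 9.63% of the 50-base exon windows of H2-K1, 12.8% of those of H2-D1 and 14.5% of those of H2-T23 also occur in exons of another gene, so the split of reads among them is uncertain to that extent, while B2m had no shared window. The share was 23.2% for Tapbp, 11.6% for Tap2 and 10.7% for Erap1, but here it came mostly from antisense overlap. Windows were also matched as reverse complements, and the main partner was a gene on the opposite strand. That gene was Gm19412 for Tapbp, Gm15821 for Tap2 and Cast for Erap1, so these shares largely repeat the overlaps given next. Exons of a gene on the opposite strand cover 24.9% of the exon bases of Tapbp, 18.5% of Tap2, 11.5% of Erap1, 3.87% of Tap1 and 0.918% of Nlrc5. The library kit marks strand, but the strand setting of the counting is not given in the sources used here, so reads of these stretches could belong to either gene.

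Libraries held 18300206 to 33477037 counts. All 10 CD8 T cell markers were detected in every library, at a summed level in CPM (a gene's share of the TMM-scaled library total) of 10641 to 11058 in TGFβ + RA, 10069 to 10560.4 in TGFβ, 7424 to 7538 in RA and 7315 to 7981 in IL-2 + IL-15. Lists of other cells moved with the groups too. The B cell list summed to 1864 to 2356 CPM in TGFβ + RA, 1384 to 1415 in TGFβ, 415 to 640.3 in RA and 314 to 417 in IL-2 + IL-15; nearly all of it was Ighm, while Ms4a1 and Pax5 had at most 1 count in any library. The NK cell list summed to 23.02 to 37.6 CPM in TGFβ + RA, 32.2 to 42.9 in TGFβ, 92.4 to 190.5 in RA and 114 to 187 in IL-2 + IL-15. Of its 5 markers, Eomes had the most counts in every library, and Ncr1 had 14 or fewer. The filter on low counts passed 4 of the 5. Of these 4, 2 were called higher and 0 lower in RA against IL-2 + IL-15, by the edgeR test described below. In TGFβ + RA and in TGFβ, each against IL-2 + IL-15, 0 were called higher and 3 lower. The myeloid and dendritic list summed to 70.5 to 81.96, 35.96 to 41.2, 228 to 392 and 134 to 204 CPM in the same order of groups, the gamma delta T cell list to 494 to 568, 344 to 385, 154 to 252 and 133 to 178 CPM, and the CD4 T cell list to 195 to 267, 84.8 to 88.05, 73.5 to 91.3 and 67.7 to 75.9 CPM. Both of these lists went in opposite directions by gene. In the CD4 T cell list, Foxp3 had 4450 to 7640 counts in TGFβ + RA and 20 to 35 in IL-2 + IL-15, whereas Cd4 had 7 to 20 and 27 to 48 counts and Zbtb7b 584 to 809 and 1589 to 2197 counts in the same order. In the gamma delta T cell list, Tcrg-C2 had 8579 to 16084 counts in TGFβ + RA and 2115 to 3247 in IL-2 + IL-15, whereas Trdc, the delta chain, had 241 to 756 and 1026 to 1213 counts, and Sox13 had at most 8 in any library. The myeloid and CD8 T cell lists also held genes called in both directions. In RA against IL-2 + IL-15, 1 of 3 tested myeloid and dendritic markers was called higher and 1 lower. Itgax had the most counts of the myeloid and dendritic markers in every library. Of the 10 CD8 T cell markers, 3 were called higher and 2 lower in RA against IL-2 + IL-15. Against the same group, 6 were higher and 2 lower in TGFβ, and 7 higher and 1 lower in TGFβ + RA. The shares of all genes called in these contrasts are given below. TGFβ + RA replicate 3 held 323 counts of Lyz2, a gene of neutrophils and macrophages, against 23 or fewer in each other library. RA replicate 3 stood apart from RA replicates 1 and 2, with a chi-square, divided by its degrees of freedom, of 26.0 and 22.1, against 8.46 between those libraries. Hbb-bs, a red cell gene, had no count in any library. The part of these markers in the results was not tested.

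Levels between genes were compared per length, as CPM per kb of exon. B2m was the highest member in every group, at 3062 ± 119.6 CPM per kb in TGFβ + RA, 3183 ± 56.03 in TGFβ, 2264 ± 27.7 in RA and 2406 ± 107 in IL-2 + IL-15 (SD, n = 3 each), which placed it between rank 4 and rank 10 of 45143 annotated genes in each library. H2-K1 stood at 1844 ± 32.4 CPM per kb in TGFβ + RA, 1745 ± 18.01 in TGFβ, 1424 ± 32.3 in RA and 1577 ± 38.4 in IL-2 + IL-15. H2-D1 stood at 1727 ± 13.6 CPM per kb in TGFβ + RA, 1754 ± 62.4 in TGFβ, 1299 ± 12.02 in RA and 1381 ± 16.3 in IL-2 + IL-15. The libraries of H2-K1 lay above those of H2-D1 in every group but TGFβ, where the genes overlapped.

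H2-T23 came next, at 237 ± 9.56 CPM per kb in TGFβ + RA, 228 ± 2.65 in TGFβ, 177 ± 12.9 in RA and 216 ± 14.9 in IL-2 + IL-15. Tapbp overlapped H2-T23 in TGFβ + RA and lay below it in the other groups. Tap2 was above Tap1 without overlap in TGFβ + RA (157 ± 2.84 against 129 ± 5.28 CPM per kb) and in RA (109.6 ± 7.41 against 91.9 ± 8.84), and the subunits overlapped in TGFβ and in IL-2 + IL-15. Nlrc5 had a lower mean than both, at 104 ± 6.50 CPM per kb in TGFβ + RA, 111 ± 6.83 in TGFβ, 65.9 ± 15.02 in RA and 103 ± 8.09 in IL-2 + IL-15. Its libraries lay below those of both subunits, except in IL-2 + IL-15, where Nlrc5 overlapped Tap1. Erap1 was the lowest member in every group, at 21.3 ± 0.426, 20.1 ± 1.06, 22.9 ± 0.821 and 20.6 ± 1.82 CPM per kb in the same order. Together the 9 genes took 1.68% ± 0.00840 of all counts in TGFβ + RA, 1.64% ± 0.0203 in TGFβ, 1.18% ± 0.0437 in RA and 1.32% ± 0.0351 in IL-2 + IL-15 (SD, n = 3 each).

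**Figure D2:**
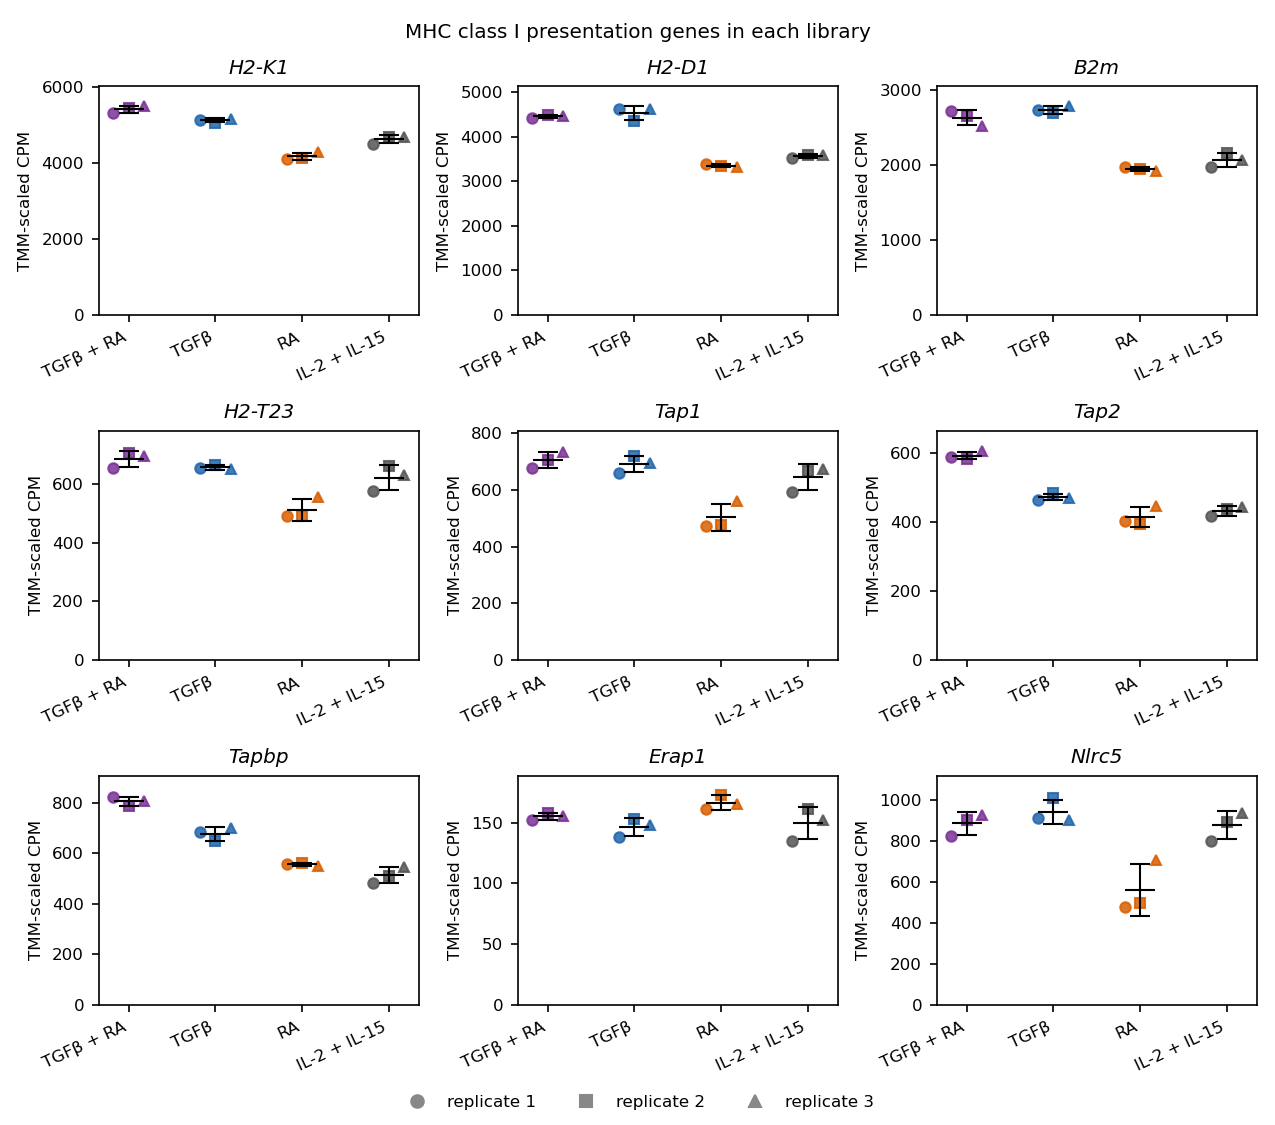
TMM-scaled CPM of each of the 9 members (vertical axes) in the 4 groups (horizontal axes), with 1 point per library and the mean with its SD (n = 3). The 3 RA libraries are the lowest for H2-K1, H2-D1, B2m, H2-T23, Tap1 and Nlrc5, and RA replicate 3 is at 706 CPM of Nlrc5, above 477 and 495 CPM in the other RA libraries.

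Most member transcripts were higher in TGFβ + RA than in RA, 4 were lower in RA than in IL-2 + IL-15, and the differences were below 2-fold. All p-values that follow come from edgeR's quasi-likelihood fit, adjusted by the Benjamini-Hochberg method over the 14009 genes, with calls at 0.05, and the value after ± is the SE for a log2 fold change. In TGFβ + RA against IL-2 + IL-15, 5 of the 9 members were higher (Tapbp, Tap2, B2m, H2-D1 and H2-K1), where 30.8% of all genes tested were called higher and 32.4% lower. In TGFβ against IL-2 + IL-15, 4 members were higher (B2m, Tapbp, H2-D1 and H2-K1), where 20.7% of all genes were called higher and 22.4% lower. In RA against IL-2 + IL-15, 4 members were lower (Nlrc5, Tap1, H2-T23 and H2-K1), where 14.3% of all genes were called lower and 12.4% higher. TGFβ + RA against TGFβ gave 2 members higher (Tap2 and Tapbp), near the background of 20.3% of all genes called higher, with 22.7% lower. TGFβ + RA against RA gave 8 members higher, all but Erap1, where 29.4% of all genes were called higher and 30.8% lower. These contrasts share libraries, so their counts are not independent. No member was called in the opposite direction in any of these 5 contrasts by edgeR or by the Wald test of DESeq2; at an unadjusted p under 0.05 in edgeR, Tapbp and Erap1 were higher in RA against IL-2 + IL-15.

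The median log2 fold change of the members was 0.23 in TGFβ + RA against IL-2 + IL-15, -0.09 in RA against IL-2 + IL-15 and 0.13 in TGFβ against IL-2 + IL-15. It was 0.06 in TGFβ + RA against TGFβ and 0.44 in TGFβ + RA against RA. The median of all genes tested lay between -0.0028 and 0.0114 in the same contrasts. With the sign left out, the median size of the log2 fold change over all genes was 0.37, 0.16, 0.23, 0.23 and 0.35 in the same order. In TGFβ + RA against IL-2 + IL-15 all genes were also ranked by size, largest first. The called members stood at 30.4% (Tapbp), 42.2% (Tap2), 51.7% (B2m), 54.3% (H2-D1) and 65.8% (H2-K1) of that ranking. With libraries scaled by their totals alone, 60.3% of the calls in TGFβ against IL-2 + IL-15 were higher, and 48.0% with TMM. In bulk RNA, fewer cells of a type and less RNA per cell cannot be told apart.

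**Figure D3:**
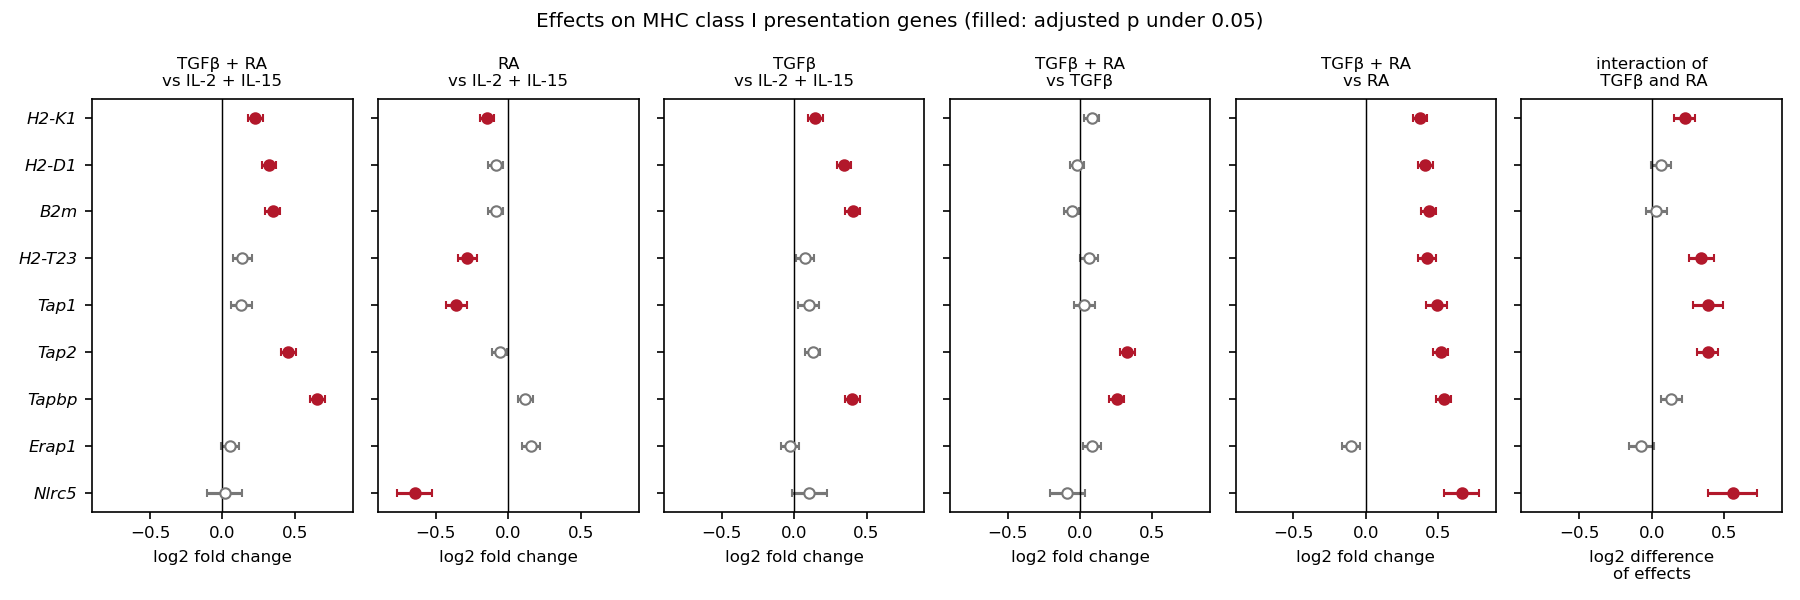
Log2 fold changes of the 9 members in the 5 contrasts between groups and the log2 interaction of TGFβ and RA, with bars for ± 1 SE; filled points passed adjusted p under 0.05 in edgeR's quasi-likelihood fit. The panel of TGFβ + RA against RA holds 8 filled points, all right of 0, and that of RA against IL-2 + IL-15 holds 4, all left of 0.

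H2-K1, the K heavy chain, had 5312, 5449 and 5495 CPM in TGFβ + RA, 5148, 5065 and 5164 CPM in TGFβ, 4122, 4134 and 4292 CPM in RA, and 4503, 4695 and 4700.5 CPM in IL-2 + IL-15. The groups did not overlap, with TGFβ + RA highest, then TGFβ, IL-2 + IL-15 and RA. It rose by a log2 fold change of 0.37 ± 0.05 in TGFβ + RA against RA (adjusted p = 2.8e-05) and by 0.23 ± 0.05 in TGFβ + RA against IL-2 + IL-15 (adjusted p = 0.00154). The smaller steps were near the threshold. The rise of 0.15 ± 0.05 in TGFβ against IL-2 + IL-15 (adjusted p = 0.0323) was not called without any 1 of the 6 libraries of those groups (0.0507 to 0.0901). The log2 fold change of -0.15 ± 0.05 in RA against IL-2 + IL-15 (adjusted p = 0.0457) was called without RA replicate 3 or without TGFβ + RA replicate 1, and was not without any 1 of the other 10 libraries (0.0563 to 0.171), in a fit of those groups alone (0.200) or with the replicate number as a block (0.0652). RA on top of TGFβ gave 0.08 ± 0.05 (adjusted p = 0.224), which the Wald test of DESeq2 called (0.0422).

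H2-D1, the D heavy chain, had 4414, 4479.6 and 4468 CPM in TGFβ + RA, 4610.4, 4339 and 4624 CPM in TGFβ, 3383, 3343 and 3322 CPM in RA, and 3512, 3589 and 3582 CPM in IL-2 + IL-15. All 6 libraries with TGFβ lay above the 6 without it, and the TGFβ + RA and TGFβ libraries overlapped. The log2 fold change was 0.32 ± 0.05 in TGFβ + RA against IL-2 + IL-15 (adjusted p = 7.26e-05), 0.35 ± 0.05 in TGFβ against IL-2 + IL-15 (8.62e-05) and 0.41 ± 0.05 in TGFβ + RA against RA (9.77e-06). The difference with RA was not called, at -0.09 ± 0.05 for RA against IL-2 + IL-15 (adjusted p = 0.218) and -0.02 ± 0.05 on top of TGFβ (0.747); DESeq2 called the first of these (0.0499). The ratio of H2-K1 to H2-D1 counts was 1.22 ± 0.0132 in TGFβ + RA, 1.13 ± 0.0293 in TGFβ, 1.249 ± 0.0384 in RA and 1.30 ± 0.0166 in IL-2 + IL-15 (SD, n = 3 each). It was lowest in the TGFβ libraries, which overlapped no other group.

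B2m, the light chain of all these class I molecules, had 2719, 2660.2 and 2519 CPM in TGFβ + RA, 2734, 2691 and 2787 CPM in TGFβ, 1969, 1950.4 and 1922 CPM in RA, and 1976, 2159.7 and 2071 CPM in IL-2 + IL-15. As for H2-D1, the 6 libraries with TGFβ lay above the 6 without. Its log2 fold change was 0.35 ± 0.05 in TGFβ + RA against IL-2 + IL-15 (adjusted p = 5.86e-05), 0.40 ± 0.05 in TGFβ against IL-2 + IL-15 (3.37e-05) and 0.44 ± 0.05 in TGFβ + RA against RA (9.13e-06). RA alone gave -0.09 ± 0.05 (adjusted p = 0.246) and RA on top of TGFβ -0.06 ± 0.05 (0.416). Likeness of profile was measured as the root mean square difference of centred log2 CPM over the 12 libraries, among 9512 genes that averaged 5 CPM or more. H2-D1 was the closest gene to B2m (0.0431), and the 5 closest outside the gene lists were Ankrd13c, Nup153, Psap, Jrkl and Mcm9 (up to 0.0594). The other members stood at ranks from 179 (H2-K1) to 4617 (Erap1). For H2-K1 the 5 closest outside the lists were Mbd2, Tubgcp6, Arhgap25, Chuk and Angel2 (0.0408 to 0.0464), with H2-T23 at rank 86 (0.0660) and H2-D1 at rank 184 (0.0767). The remaining members stood at ranks from 613 (Tap1) to 5276 (Nlrc5).

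H2-T23, which encodes Qa-1, had 655, 708 and 695 CPM in TGFβ + RA, 655, 667 and 652 CPM in TGFβ, 491, 491 and 555 CPM in RA, and 577, 662 and 631 CPM in IL-2 + IL-15. The RA libraries were the lowest and overlapped no other group. The log2 fold change was -0.28 ± 0.06 in RA against IL-2 + IL-15 (adjusted p = 0.00428) and 0.42 ± 0.06 in TGFβ + RA against RA (6.29e-05). TGFβ against IL-2 + IL-15 gave 0.08 ± 0.06 (adjusted p = 0.337), and RA on top of TGFβ gave 0.06 ± 0.06 (0.468). In TGFβ + RA against IL-2 + IL-15 the value of 0.14 ± 0.06 missed the threshold (adjusted p = 0.0679). It passed with DESeq2 (0.0434), with library totals alone (0.0114), with the replicate number as a block (0.0471), and without IL-2 + IL-15 replicate 2 (0.0395), RA replicate 3 (0.0308) or TGFβ + RA replicate 1 (0.0462).

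Tap1, a subunit of the peptide transporter, had 677, 707 and 734 CPM in TGFβ + RA, 660.3, 719 and 696 CPM in TGFβ, 474, 477 and 559 CPM in RA, and 593, 667 and 675 CPM in IL-2 + IL-15. As for H2-T23, the RA libraries were the lowest and overlapped no other group. Its log2 fold change was -0.36 ± 0.07 in RA against IL-2 + IL-15 (adjusted p = 0.00212) and 0.49 ± 0.07 in TGFβ + RA against RA (5.53e-05). TGFβ + RA and TGFβ were not called against IL-2 + IL-15, at 0.13 ± 0.07 (adjusted p = 0.127) and 0.10 ± 0.07 (0.276). With library totals alone, TGFβ + RA against IL-2 + IL-15 was 0.20 and called (0.0292).

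Tap2, the partner subunit, had 589, 584 and 605 CPM in TGFβ + RA, 465, 483 and 468 CPM in TGFβ, 402, 395 and 447 CPM in RA, and 416, 438 and 442 CPM in IL-2 + IL-15. The TGFβ + RA libraries stood above all others, the TGFβ libraries came next, and RA and IL-2 + IL-15 overlapped. Tap2 rose by 0.46 ± 0.05 in TGFβ + RA against IL-2 + IL-15 (adjusted p = 4.5e-06), by 0.33 ± 0.05 against TGFβ (0.000180) and by 0.52 ± 0.05 against RA (1.79e-06). RA against IL-2 + IL-15 gave -0.06 ± 0.05 (adjusted p = 0.435). TGFβ against IL-2 + IL-15 gave 0.13 ± 0.05 (adjusted p = 0.0613), which passed with DESeq2 (0.0331), with library totals alone (0.0110), in a fit of those groups alone (0.0258) and without RA replicate 3 (0.0140). The count ratio of Tap1 to Tap2 was 1.19 ± 0.0367 in TGFβ + RA, 1.46 ± 0.0386 in TGFβ, 1.21 ± 0.0367 in RA and 1.49 ± 0.0568 in IL-2 + IL-15 (SD, n = 3 each). All 6 libraries with RA had a lower ratio than the 6 without. Antisense exons cover 18.5% of Tap2 and 3.87% of Tap1, and their part in this ratio was not tested.

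Tapbp, which encodes tapasin, the bridge between the transporter and the empty heavy chain, had 823, 788 and 805 CPM in TGFβ + RA, 683, 647 and 698 CPM in TGFβ, 558, 561 and 547 CPM in RA, and 482, 509 and 545 CPM in IL-2 + IL-15. The groups did not overlap and stood in that order from high to low. Its rise of 0.65 ± 0.05 in TGFβ + RA against IL-2 + IL-15, a 1.57-fold level, was the largest of the 9 members in that contrast (adjusted p = 1.33e-07). The log2 fold change was 0.40 ± 0.05 in TGFβ against IL-2 + IL-15 (adjusted p = 3.39e-05), 0.25 ± 0.05 in TGFβ + RA against TGFβ (0.00144) and 0.54 ± 0.05 in TGFβ + RA against RA (1.25e-06). RA against IL-2 + IL-15 gave 0.12 ± 0.05 (adjusted p = 0.116), which passed without IL-2 + IL-15 replicate 3 (0.0469).

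Erap1, the aminopeptidase that trims peptides in the endoplasmic reticulum, had 152, 158 and 156 CPM in TGFβ + RA, 138, 153 and 148 CPM in TGFβ, 161, 173 and 166 CPM in RA, and 135, 161 and 152 CPM in IL-2 + IL-15. The RA libraries lay above those of TGFβ + RA and TGFβ, every group overlapped IL-2 + IL-15, and Erap1 was called in none of the contrasts, with log2 fold changes between -0.10 and 0.16. The 0.16 ± 0.06 of RA against IL-2 + IL-15 (adjusted p = 0.0816) passed with the replicate number as a block (0.0199) and without IL-2 + IL-15 replicate 2 (0.0251). The -0.10 ± 0.06 of TGFβ + RA against RA (adjusted p = 0.168) passed without IL-2 + IL-15 replicate 1 (0.0488).

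Nlrc5, the class I transactivator, had 823, 904 and 928 CPM in TGFβ + RA, 910.5, 1007 and 904 CPM in TGFβ, 477, 495 and 706 CPM in RA, and 800.2, 893 and 934 CPM in IL-2 + IL-15. The RA libraries lay below all others, with RA replicate 3 nearest to them, and the other groups overlapped. The log2 fold change in RA against IL-2 + IL-15 was the largest of the 9 members in that contrast, at -0.65 ± 0.12 or a 0.638-fold level (adjusted p = 0.00135), and -0.84 without RA replicate 3 (1.73e-06). TGFβ + RA was 0.66 ± 0.12 higher than RA on the log2 scale (adjusted p = 0.000361). With TGFβ present, RA gave -0.09 ± 0.12 (0.596), and TGFβ + RA and TGFβ gave 0.02 ± 0.12 (0.922) and 0.10 ± 0.12 (0.524) against IL-2 + IL-15, none of them called. The genes nearest to Nlrc5 in profile outside the lists were Gtpbp2, Plekhn1, Pik3ip1, Usp35 and Suv420h2 (root mean square difference 0.0956 to 0.130 over 12 libraries). Of the listed genes, Stat2, which carries type I interferon signals, was at rank 3 of 9512 (0.120) and Psmb9 at rank 7 (0.134), with Tap1 at rank 25 and H2-T23 at rank 95. The other members were further off, with H2-K1 at rank 466, H2-D1 at 627, B2m at 666, Tap2 at 1058, Tapbp at 2982 and Erap1 at 5135. There were 6.13 ± 0.283 H2-K1 counts per Nlrc5 count in TGFβ + RA, 5.47 ± 0.380 in TGFβ, 7.69 ± 1.41 in RA and 5.30 ± 0.301 in IL-2 + IL-15 (SD, n = 3 each).

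The interaction of TGFβ and RA asks whether the effect of RA differed between cultures with TGFβ and without it. It was called for 5 of the 9 members, all with a higher log2 effect of RA in the presence of TGFβ, where 6.95% of all genes were called in that direction and 12.3% in the other. The difference of log2 effects was 0.56 ± 0.17 for Nlrc5 (adjusted p = 0.0360), 0.39 ± 0.10 for Tap1 (0.0164), 0.39 ± 0.07 for Tap2 (0.00234), 0.34 ± 0.09 for H2-T23 (0.0156) and 0.23 ± 0.07 for H2-K1 (0.0407). It was 0.13 ± 0.07 for Tapbp (adjusted p = 0.222), 0.07 ± 0.07 for H2-D1 (0.561), 0.03 ± 0.07 for B2m (0.811) and -0.07 ± 0.09 for Erap1 (0.612). None of these 4 had an unadjusted p under 0.05 or was called by DESeq2. The median of the 9 was 0.23, against -0.0043 over all genes, where the median size with the sign left out was 0.21. For Nlrc5, Tap1, H2-T23 and H2-K1 the call of the RA effect was the fall without TGFβ, and for Tap2 it was the rise with TGFβ.

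The call for Tap2 held without any 1 library. Those for Tap1 and H2-T23 were lost without IL-2 + IL-15 replicate 2 (adjusted p = 0.0534 for Tap1 and 0.0561 for H2-T23) and without RA replicate 2 (0.0529 and 0.0503). Nlrc5 was called without RA replicate 3 (0.74, adjusted p = 7.41e-05), IL-2 + IL-15 replicate 1, TGFβ replicate 2 or TGFβ + RA replicate 1, and was not without any 1 of the other 8 libraries (0.0709 to 0.102). H2-K1 was called without RA replicate 3, IL-2 + IL-15 replicate 1 or TGFβ + RA replicate 1, and was not without any 1 of the other 9 (0.0758 to 0.120) nor with the replicate number as a block (0.0557). The number of members called was 1 without IL-2 + IL-15 replicate 2 or RA replicate 2. It was 3 without IL-2 + IL-15 replicate 3, RA replicate 1, TGFβ replicate 1 or 3, or TGFβ + RA replicate 2 or 3.

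**Figure D4:**
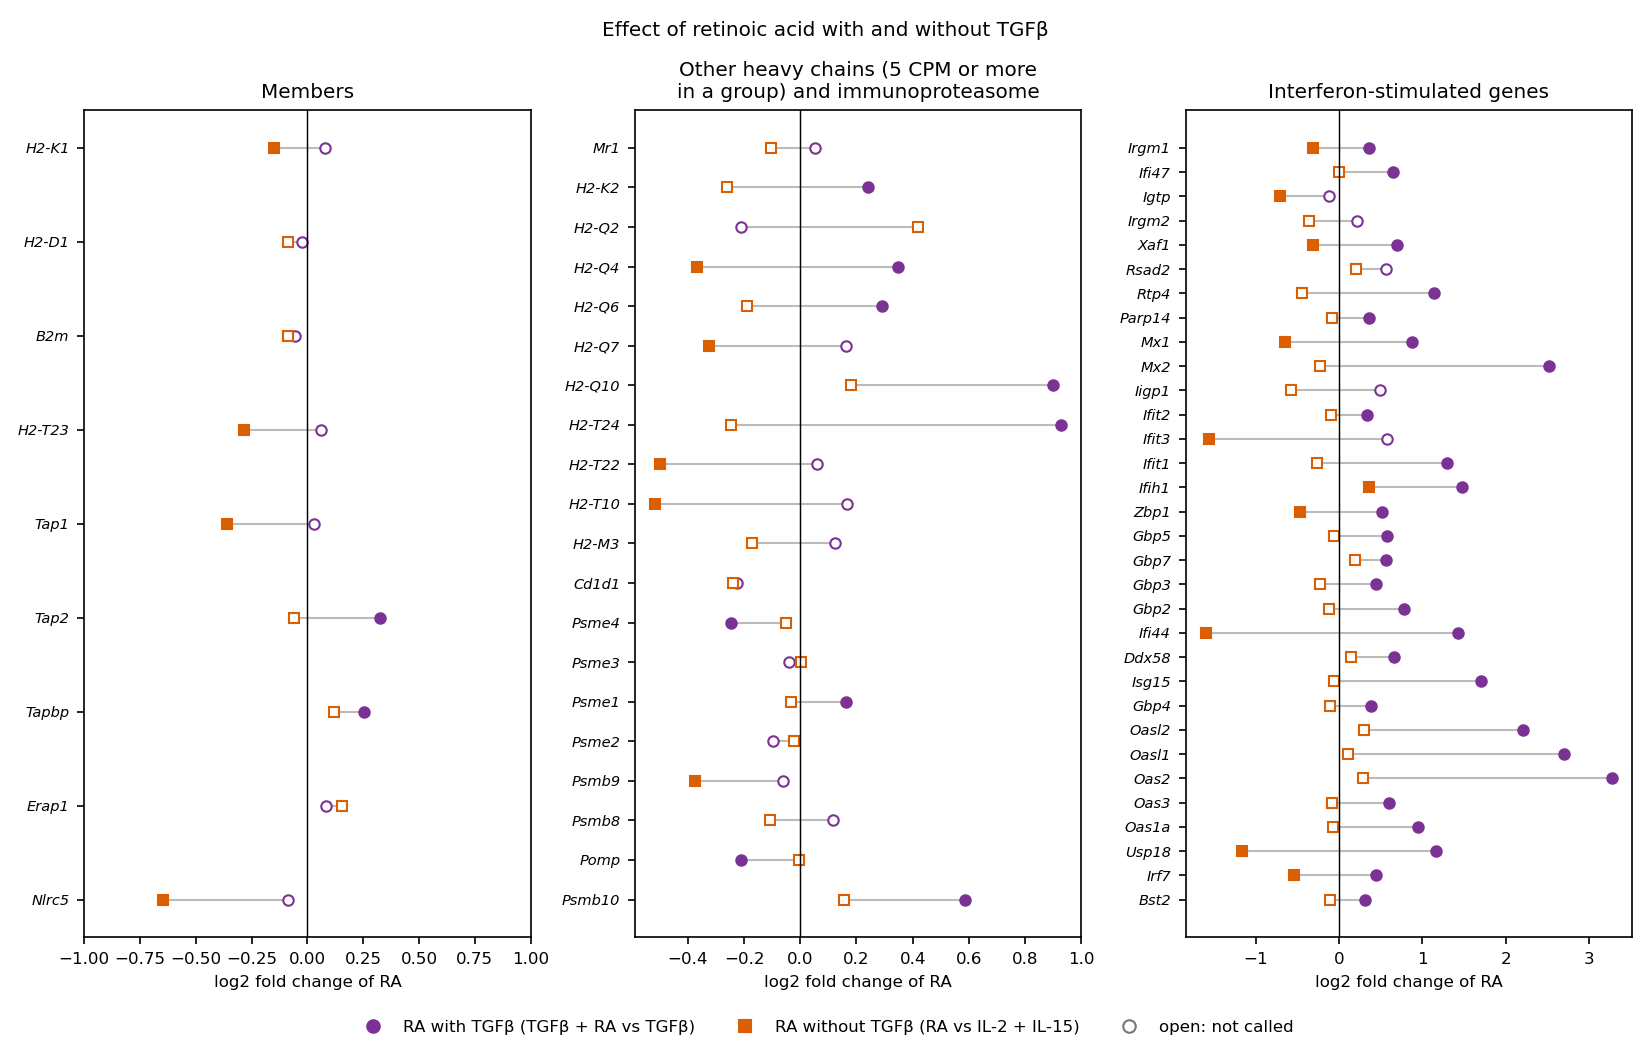
Log2 fold change of RA with TGFβ present (circles, TGFβ + RA against TGFβ) and without it (squares, RA against IL-2 + IL-15) for the 9 members, other heavy chains and immunoproteasome genes, and interferon-stimulated genes; filled symbols passed adjusted p under 0.05 in edgeR's fit. Circles lie right of squares for 8 of the 9 members, the exception being Erap1.

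Other class I heavy chains followed several patterns. Of 21 listed, 14 were tested, and 4 of them fell in RA against IL-2 + IL-15, the non-classical H2-T10 (-0.52 ± 0.10) and H2-T22 (-0.50 ± 0.09) and the Qa-2 region genes H2-Q4 (-0.37 ± 0.11) and H2-Q7 (-0.32 ± 0.09). Of all genes, 14.3% were called lower and 12.4% higher in that contrast. The count of heavy chains that fell was 8 without RA replicate 3 and 2 without RA replicate 1, RA replicate 2 or IL-2 + IL-15 replicate 3. In TGFβ against IL-2 + IL-15, 4 rose and 6 fell, beside 20.7% and 22.4% of all genes. H2-Q10, a secreted heavy chain, had 53.8, 49.3 and 54.8 CPM in TGFβ + RA, 26.5, 29.4 and 28.7 CPM in TGFβ, 143, 146 and 197 CPM in RA, and 160.01, 134 and 135 CPM in IL-2 + IL-15. The libraries with TGFβ were below all others, with log2 fold changes of -1.44 ± 0.11 in TGFβ + RA and -2.34 ± 0.12 in TGFβ against IL-2 + IL-15. Cd1d1, the lipid-presenting relative of class I (1.02 ± 0.13), and H2-M3, which presents formylated bacterial peptides (0.36 ± 0.06), rose in TGFβ.

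In TGFβ + RA against IL-2 + IL-15, 4 of the 14 rose and 4 fell, near the 30.8% and 32.4% of all genes, and 2 fell without TGFβ + RA replicate 3. In TGFβ + RA against TGFβ, 5 rose, among them H2-T24 (0.93 ± 0.13), H2-Q10 (0.90 ± 0.12) and H2-Q6 (0.29 ± 0.08), and H2-M5, at 0.212, 0.0941 and 0 CPM in TGFβ + RA and 1.38, 1.48 and 1.28 CPM in TGFβ, fell; 3 rose without TGFβ replicate 1 or 3 or TGFβ + RA replicate 2 or 3. The shares of all genes called higher and lower in TGFβ + RA against TGFβ were 20.3% and 22.7%. In TGFβ + RA against RA, 8 rose, with H2-Q4 at 0.88 ± 0.11, and 3 fell, beside 29.4% and 30.8% of all genes. The interaction was positive for 9 and negative for 1, beside 6.95% and 12.3% of all genes. It was positive for 6 without RA replicate 2. Some 50-base exon windows of H2-K1 or H2-D1 also occur in H2-Q4, H2-Q6, H2-Q7 or H2-Q10. Sharing was not measured among the 14 genes themselves, and single values are uncertain.

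Of 10 peptide loading factors outside the members, 2 rose and 4 fell in TGFβ + RA against IL-2 + IL-15, near the shares of all genes called higher (30.8%) and lower (32.4%). Tapbpl, the tapasin-like peptide editor, had 208, 221 and 226 CPM in TGFβ + RA, 160.2, 162 and 171 CPM in TGFβ, 118, 127 and 134 CPM in RA, and 106, 128 and 131 CPM in IL-2 + IL-15. Like Tapbp it was highest in TGFβ + RA without overlap, at 0.84 ± 0.07 against IL-2 + IL-15 (adjusted p = 3.59e-07) and 0.41 ± 0.07 against TGFβ (0.000483). Canx, the chaperone calnexin that folds new heavy chains, was lower in the same contrasts, at -0.55 ± 0.04 (adjusted p = 1.4e-07) and -0.28 ± 0.04 (0.000172). Of 8 other peptidases, of the cytosol and endosomes, 2 rose and 3 fell in the first of these contrasts, again near those shares. Thop1, a cytosolic peptidase, was at -1.75 ± 0.13, and Lnpep, an aminopeptidase of endosomes, at 0.43 ± 0.06.

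The immunoproteasome genes, which make peptides suited to class I, differed by subunit. Psmb9 had 284, 306 and 324 CPM in TGFβ + RA, 302, 331 and 320.3 CPM in TGFβ, 201, 215 and 253 CPM in RA, and 273, 302 and 295 CPM in IL-2 + IL-15. Like Tap1, its head-to-head neighbour, Psmb9 was lowest in RA without overlap (-0.38 ± 0.08 against IL-2 + IL-15, adjusted p = 0.00278). Psmb10 had 196, 207 and 219 CPM in TGFβ + RA, 139, 132 and 143 CPM in TGFβ, 139.7, 146 and 145 CPM in RA, and 119.7, 130.5 and 136 CPM in IL-2 + IL-15. Like Tap2 it was highest in TGFβ + RA without overlap, at 0.59 ± 0.06 against TGFβ (adjusted p = 2.03e-06) and 0.69 ± 0.06 against IL-2 + IL-15 (2.05e-07). Psmb8 was at -0.01 ± 0.05 in TGFβ + RA (adjusted p = 0.848), -0.13 ± 0.05 in TGFβ (0.0440) and -0.11 ± 0.05 in RA (0.114), each against IL-2 + IL-15. The call in TGFβ was lost without any 1 of the TGFβ or IL-2 + IL-15 libraries (0.0504 to 0.139). Of the 8 immunoproteasome and activator genes, 1 rose and 3 fell in TGFβ + RA against IL-2 + IL-15, beside 30.8% and 32.4% of all genes. Of the 3 constitutive catalytic subunits, Psmb5 (-0.21 ± 0.07) and Psmb7 (-0.22 ± 0.06) fell. The call for Psmb5 (adjusted p = 0.0263) was lost with library totals alone (0.112) and without IL-2 + IL-15 replicate 1 (0.110), TGFβ + RA replicate 2 (0.0840) or TGFβ + RA replicate 3 (0.0789).

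Of 27 transcription factors and interferon signalling genes, 14 rose and 6 fell in TGFβ + RA, 11 rose and 4 fell in TGFβ, and 3 rose and 8 fell in RA, each against IL-2 + IL-15. The shares of all genes called higher and lower were 30.8% and 32.4% in TGFβ + RA, 20.7% and 22.4% in TGFβ, and 12.4% and 14.3% in RA. Irf1, an interferon-induced activator of class I promoters, had 657, 665 and 693 CPM in TGFβ + RA, 506, 553 and 539 CPM in TGFβ, 344, 368 and 426 CPM in RA, and 339, 382 and 401 CPM in IL-2 + IL-15. Irf1 rose by 0.84 ± 0.08 in TGFβ + RA (adjusted p = 5.96e-07) and by 0.51 ± 0.08 in TGFβ (0.000142), with RA at 0.02 ± 0.08 (0.891).

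Rfx5, the RFX subunit that binds class I promoters, fell in TGFβ + RA (-0.88 ± 0.06) and in TGFβ (-0.73 ± 0.06) against IL-2 + IL-15, while its partner Rfxank rose in both (0.62 ± 0.05 and 0.42 ± 0.05). Stat2 fell in RA (-0.54 ± 0.07, adjusted p = 7.29e-05), with 159.8, 149 and 179.9 CPM in RA and 223, 242 and 246 CPM in IL-2 + IL-15, and its interaction was 0.64 ± 0.10 (0.000498). Jak2 and Ifngr1, which transmit the interferon-gamma signal, rose in RA against IL-2 + IL-15 (1.11 ± 0.06 and 0.57 ± 0.06). The related list genes Jak1 and Ifngr2 did not rise. Jak1 had 931, 936 and 859 CPM in RA, all below the 1103, 1145 and 1125 CPM in IL-2 + IL-15. Ifngr2 had 5.41, 8.54 and 13.4 CPM in RA, which overlapped 9.92, 16.9 and 18.7 CPM in IL-2 + IL-15. Ifng, the cytokine itself and a strong inducer of class I genes, was low and uneven, with 1.16, 0.220 and 0.294 CPM in TGFβ + RA, 9.42, 7.24 and 7.49 CPM in TGFβ, 1.82, 2.14 and 1.43 CPM in RA, and 29.2, 2.64 and 3.16 CPM in the cultures with interleukins alone. The first replicate of IL-2 + IL-15 was far above its group. RA against IL-2 + IL-15 was -2.68 ± 0.78 (adjusted p = 0.0218), -0.67 without that library (0.199), and not called without RA replicate 1 (0.0582) or RA replicate 2 (0.0616). TGFβ against IL-2 + IL-15 was -0.53 ± 0.66 (0.554) with that library and 1.46 (0.00328) without it. TGFβ + RA was lower than TGFβ (-4.03 ± 0.98, 0.00445) and lower than IL-2 + IL-15 (-4.56 ± 0.95, 0.000932, and -2.57 without that library, 0.000220). TGFβ + RA against RA was -1.89 ± 1.16 (0.176) and the interaction -1.36 ± 1.35 (0.526), and both were called without that library, at -1.90 (0.00208) and -3.36 (0.000887).

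Of 32 interferon-stimulated genes, 27 rose in TGFβ + RA against TGFβ (25 to 29 when 1 library was left out), and the interaction was positive for 25 (22 to 29), beside the backgrounds of 20.3% and 6.95% of all genes. In RA against IL-2 + IL-15, 9 fell, beside 14.3% of all genes, and 6 to 13 did with 1 library left out (6 without RA replicate 2 and 13 without RA replicate 3). In TGFβ against IL-2 + IL-15, 7 rose and 16 fell, beside 20.7% and 22.4% of all genes. The median log2 fold change was 0.62 for RA on top of TGFβ and -0.11 for RA without it, against 0.0114 and -0.0014 over all genes. The median sizes over all genes, with the sign left out, were 0.23 and 0.16. Usp18, which restrains type I interferon receptors, had 18.6, 35.8 and 32.3 CPM in TGFβ + RA, 12.4, 13.2 and 13.6 CPM in TGFβ, 20.4, 20.7 and 16.7 CPM in RA, and 43.98, 50.5 and 35.4 CPM in IL-2 + IL-15. The TGFβ libraries were below all others, TGFβ + RA overlapped both RA and IL-2 + IL-15, and the interaction was 2.32 ± 0.27 (adjusted p = 6.42e-05). Gbp2, a GTPase induced by interferon-gamma, had 362, 404 and 373 CPM in TGFβ + RA, 208, 233 and 225 CPM in TGFβ, 105, 116 and 141 CPM in RA, and 99.3, 143 and 151 CPM in IL-2 + IL-15. Here TGFβ + RA was highest without overlap, at 1.54 ± 0.13 against IL-2 + IL-15 (adjusted p = 3.07e-07).

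Of 14 tested genes of receptors that bind class I, 5 rose and 8 fell in TGFβ + RA against IL-2 + IL-15, beside 30.8% and 32.4% of all genes. NK cells carry several of these receptors too, and which cells gave these transcripts was not tested. Klrc1, which encodes NKG2A, the inhibitory receptor for Qa-1, had 51.1, 54.2 and 41.3 CPM in TGFβ + RA, 179, 169 and 153 CPM in TGFβ, 49.8, 37.9 and 27.7 CPM in RA, and 139, 127 and 93.5 CPM in IL-2 + IL-15. The 6 libraries with RA were below the 6 without, at -1.77 ± 0.18 in TGFβ + RA against TGFβ (adjusted p = 3.04e-06) and -1.64 ± 0.18 in RA against IL-2 + IL-15 (2.26e-05). Klrd1, its CD94 partner, rose by 0.50 ± 0.06 in TGFβ + RA against IL-2 + IL-15 (1.41e-05). H2-T23, the gene of their ligand, was lower in RA than in IL-2 + IL-15 by a call and was not called between TGFβ + RA and TGFβ, where Klrc1 fell.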

How the data were processed

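Stranded poly(A) RNA-seq counts per gene were analysed for 12 libraries. The authors deposited raw counts made with STAR and featureCounts on GRCm38, per the submitters' processing notes. Their versions, the strand setting and the handling of multi-mapped reads are not given in the sources used here. All 552936 values of the deposited per-sample tables equalled those of the series table. Counts were scaled by TMM, filtered with filterByExpr (minimum count 10), and fitted over all 12 libraries (8 residual degrees of freedom) with edgeR 4.0.16 (quasi-likelihood test, Benjamini-Hochberg adjustment) in R 4.3.3; the Wald test of DESeq2 1.42.0 was an alternative. Counts are not molecules, so depth gives counting precision only. Of the gene IDs, 98.0% matched the annotation behind lengths and overlaps. The members and lists were chosen with earlier results of these data known. From each list, at most 4 called genes per contrast with the smallest adjusted p are named, plus Ifng, Irf1, Rfx5, Psmb8, Psmb9 and Psmb10 in any contrast, all 9 members, and the 5 genes outside the lists nearest in profile to Nlrc5, H2-K1 and B2m. Jak1 and Ifngr2 were added beside Jak2 and Ifngr1. The fit was tested on simulated data. Alternatives were other scalings, no filter, DESeq2, a replicate block, the compared groups alone and each library left out. Values of 1 gene that this rule names, of 1 marker gene and of 1 motif searched are not reported here.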

Additional observations from a re-analysis of the deposited data

Results flagged for a closer look

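For 5 members the effect of RA was called different between cultures with TGFβ and cultures without it, by the interaction term of edgeR's quasi-likelihood fit. The call for Tap2 held without any 1 library. Those for Nlrc5, Tap1, H2-T23 and H2-K1 were each lost without some single libraries. The difference of the log2 effects was 0.56 for Nlrc5, 0.39 for Tap1, 0.39 for Tap2, 0.34 for H2-T23 and 0.23 for H2-K1. With TGFβ the effect of RA was -0.09 for Nlrc5, 0.03 for Tap1, 0.33 for Tap2, 0.06 for H2-T23 and 0.08 for H2-K1, and without TGFβ it was -0.65, -0.36, -0.06, -0.28 and -0.15 for the same genes.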

How the results depend on the processing

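Over the 54 results of the members (9 genes in 6 contrasts), none changed sign past the threshold under any alternative. All 54 kept their side of the threshold with RLE scaling and without the filter, 51 with library totals alone, 50 with DESeq2, 50 with the replicate block, and 43 of 45 in fits of the compared groups alone. Of 648 values with 1 library left out, 604 kept theirs, 37 lost the call and 7 gained one. With 1 library left out, members with a positive interaction numbered 1 to 5, members higher in RA than in IL-2 + IL-15 numbered 0 to 1, and members lower in TGFβ + RA than in RA numbered 0 to 1. With the replicate block, 1 member (Erap1) was higher in RA. Genes with a called interaction numbered 2040 to 4158 with 1 library left out (4158 without RA replicate 3), and 2702 with all. Ifng in TGFβ against IL-2 + IL-15 ranged from -0.99 to 1.46, with 1.46 without IL-2 + IL-15 replicate 1. The causes were not tested.

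The labels do not say that equal replicate numbers share an animal. Deviations of 18 same-numbered pairs correlated at -0.0039 to 0.341, 10 of them over 0.1, and 12 of 12 libraries correlated best with their own number, a hint from the data and not the design. With the replicate number as a block, 9059 genes were called in TGFβ + RA against IL-2 + IL-15 (8854 without the block), 4021 in RA (3740), 6381 in TGFβ (6034), 6324 in TGFβ + RA against TGFβ (6029), 8675 against RA (8440) and 3072 in the interaction (2702). Every member had 135 CPM or more in every library.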
